A study of Homo sapiens with 14 samples.

Results

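The HOX cluster genes are the 39 protein-coding homeobox genes of the 4 human HOX clusters. They were taken by symbol: HOX, a cluster letter from A to D and a paralog number, with antisense RNAs left out. All 39 were listed among the 24199 features of the DU145 table and among the 44591 genes of the LNCaP table, 11 in HOXA, 10 in HOXB, 9 in HOXC and 9 in HOXD. Both lines are human prostate cancer cell lines that grow in culture. LNCaP cells carry an androgen receptor, and DU145 cells grow without androgen. RNA-seq libraries of 4 kinds of cells were compared. The LNCaP arms were parental cells, labelled WT, and LNCaP ENZ cells, an enzalutamide-resistant line kept in 20 µM enzalutamide, an androgen receptor blocker, which the text of the series dates to 30 days of treatment. The DU145 arms were 3 shCON libraries, from cells with a non-target hairpin, and 3 shPAX6 libraries, from cells with a lentiviral hairpin against PAX6, both from lines selected with puromycin. Each LNCaP arm was 1 library. The sources used here do not say which of the study's PAX6 hairpins was sequenced, nor whether the libraries of a DU145 group came from separate cultures, so p-values measure the spread between these libraries, which may be technical. Each kind of cell was a bulk sample of 1 line, in which fewer cells of a type and less RNA per cell cannot be told apart.

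HOX genes encode homeodomain transcription factors that give cells along the body axis their position. In each cluster the genes lie side by side on 1 strand, and the paralog number follows their order: low numbers act towards the head and high numbers towards the tail. Polycomb complexes keep silent parts of a cluster closed, complexes of the MLL family keep active parts open, and retinoic acid opens clusters from the low-numbered end. HOX proteins bind DNA with cofactors of the PBX and MEIS families. HOXB13, at the far end of HOXB, is a factor of the prostate lineage that works together with the androgen receptor.

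The LNCaP libraries held 20468001 counts (parental) and 17945722 counts (ENZ), and the DU145 libraries carried no depth, only summed FPKM (fragments scaled by transcript length and library size) of 448901 to 570790, with the highest sum in shPAX6 replicate 1. RN7SK alone took 12.3% of the parental and 13.0% of the ENZ counts. The targeted gene PAX6 read 0.839, 1.23 and 1.57 FPKM in shCON and 0.0153, 0.274 and 0.0778 FPKM in shPAX6, a difference of -2.69 on the log2(FPKM + 0.1) scale (SE 0.49, limma adjusted p = 0.0539). The exact two-sided permutation p was 0.10, the smallest that 3 against 3 allows. PAX6 had 11 counts in parental LNCaP and 4 in LNCaP ENZ. The luminal markers KLK2, TMPRSS2 and FOLH1 were listed at 0 in all DU145 libraries, whereas all 7 luminal markers passed 1 CPM (counts scaled by the library total) in LNCaP, where KLK2 and TMPRSS2 were among those past 2-fold lower in ENZ cells. The basal markers KRT5, KRT14 and TP63 were listed at 0 in DU145 and had at most 3 counts in LNCaP. No neuroendocrine marker of 6 passed the level filters in either line. Of the 4 epithelial markers 1 passed the test in DU145: E-cadherin (CDH1) differed by -2.28 (SE 0.34, limma adjusted p = 0.0334). PECAM1 (endothelial) and COL3A1 (fibroblast) were at or near 0 in both lines, with at most 3 counts in LNCaP. PTPRC (blood) was listed at 0 in DU145 and had 23 counts in parental and 28 in ENZ cells, a mean of 1.34 CPM. VWF (endothelial) had 345 counts in parental and 27 in ENZ cells, COL1A1 456 and 231, and PDGFRB 36 and 57.

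The HOX genes read in the lines overlapped in part. DU145 shCON cells had 25 of the 39 genes at a mean of at least 0.5 FPKM, and the LNCaP libraries had 11 at a mean of at least 1 CPM. The lists shared 9 genes, among them HOXA10, HOXB7, HOXB9, HOXC4, HOXC5, HOXC6, HOXC9 and HOXC13, which is 36.0% of the DU145 list and 81.8% of the LNCaP list. HOXB13 and HOXC12 were in the LNCaP list alone. Across the 39 genes the shCON mean FPKM and the parental TPM had a Spearman's rho of 0.56, a description over genes that are not independent. The tables were made separately and the cut-offs are in different units, so levels are set side by side without a test.

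**Figure D1:**
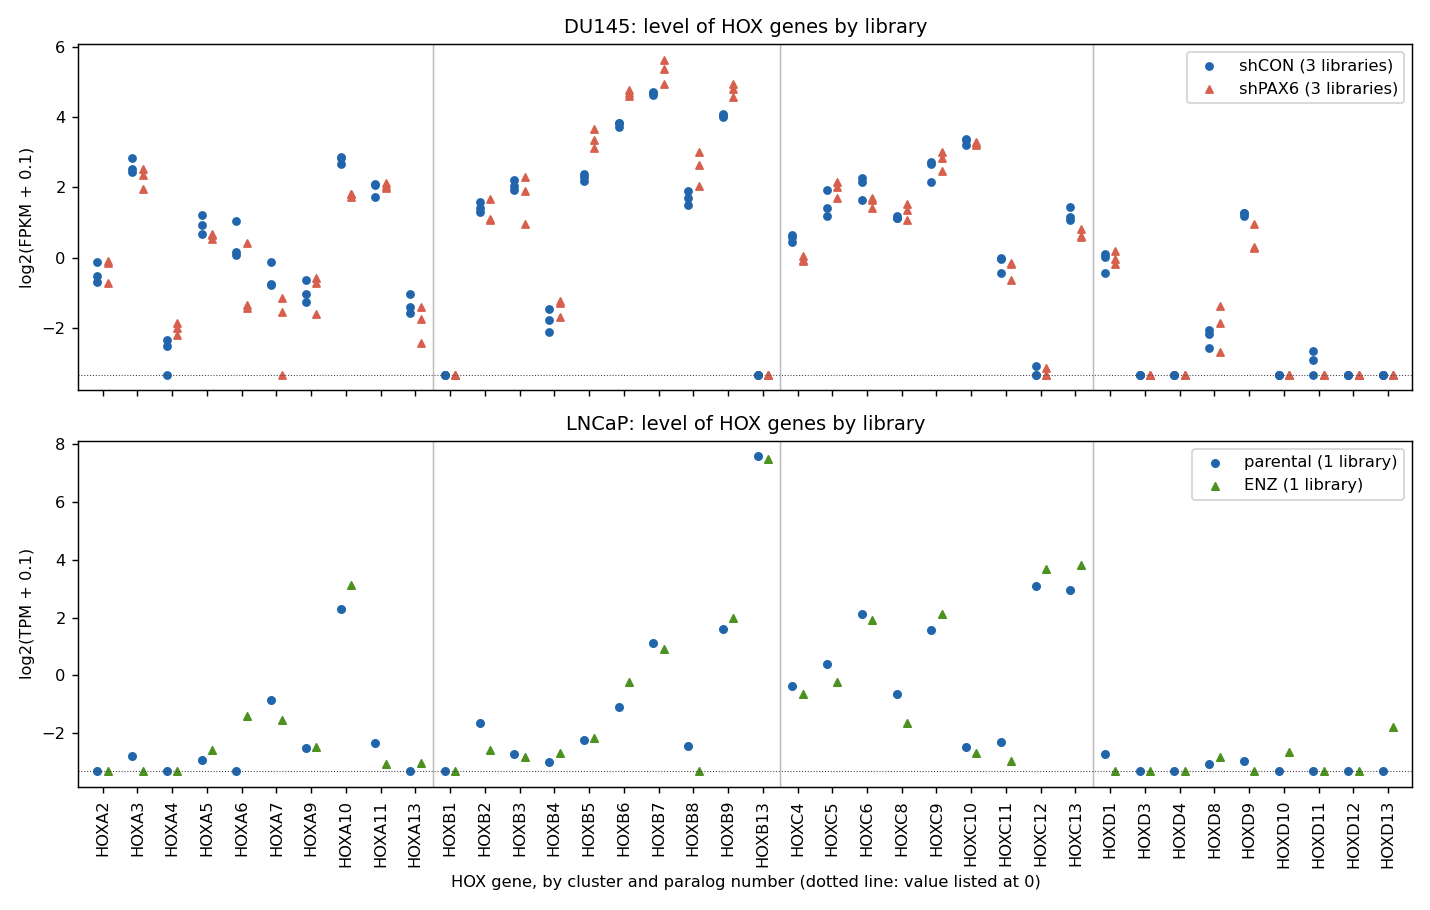
Level of the HOX genes in every library, as log2(FPKM + 0.1) for the 6 DU145 libraries (top) and log2(TPM + 0.1) for the 2 LNCaP libraries (bottom), with a dotted line where the value is listed at 0. HOXB13 stands above all other HOX genes in LNCaP and lies on the dotted line in DU145, where HOXB7 and HOXB9 are the highest.

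HOXB13 was listed at 0 FPKM in all 6 DU145 libraries, and so was the gene at the other end of the cluster, HOXB1. In LNCaP, HOXB13 had 11374 counts in parental and 10025 in ENZ cells, or 191 and 181 TPM (counts scaled by gene length and library). RN7SK took 38.8% of the parental and 38.5% of the ENZ TPM, which lowers the TPM of the other genes. HOXB13 stood at the 99.5th percentile of the parental table and made up 83.4% of the summed HOX TPM in parental and 77.3% in ENZ cells. PRAC1 and PRAC2, small genes beside HOXB13, showed the same split between the lines. PRAC1 had 202 and 192 counts in LNCaP and was listed at 0 in DU145. PRAC2 had 232 and 204 counts in LNCaP and at most 0.402 FPKM in DU145.

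HOXC12 also marked LNCaP. It read 8.37 TPM in parental and 12.6 TPM in ENZ cells, against at most 0.0184 FPKM in a DU145 library. Its neighbour HOXC13 was read in both lines, at 7.60 and 13.9 TPM in LNCaP and 2.26 ± 0.33 FPKM in shCON (SD, n = 3). In DU145 the highest member was HOXB7, at 25.3 ± 0.77 FPKM in shCON (SD, n = 3), at the 86.9th percentile of its table, followed by HOXB9 and HOXB6. HOXC10, at 9.81 ± 0.65 FPKM (SD, n = 3), was the highest member outside HOXB, and had 3 and 2 counts in LNCaP. HOXA3, HOXA11, HOXB3 and HOXB5 were other genes of DU145 at a mean of 3.82 to 6.02 FPKM in shCON, with at most 5 counts in a LNCaP library.

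HOXD was the quietest cluster. In DU145, 5 of its 9 genes (HOXD3, HOXD4, HOXD10, HOXD12 and HOXD13) were listed at 0 in every library, and HOXD9 and HOXD1 passed the filter. In LNCaP, 4 of the 9 had no counts in either library, and HOXD13 was the one gene above 3 counts. An exact 0 says only that the gene is listed at 0. A count of 0 in LNCaP allows up to 3 counts, or 0.147 CPM in parental and 0.167 CPM in ENZ cells, counting error only.

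The knockdown of PAX6 in DU145 addressed what follows when this transcription factor is reduced in cells that express it. Neighbouring genes of HOXB had higher values in shPAX6 and a gene of HOXA had lower ones. HOXB5 and HOXB6 were higher in shPAX6 and HOXA10 was lower at an adjusted p under 0.05, by limma on log2(FPKM + 0.1). Of the 39 members, 24 had a mean of at least 0.5 FPKM over the 6 libraries and were tested. All 24 reached that mean in both groups. HOXA7 reached it in shCON alone and was not tested. The other untested members read at most 0.577 FPKM in any library, among them HOXA4, HOXA13, HOXD8 and HOXD11.

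Among the tested members 2 were called higher, where 0.177% of all 13574 tested features were, and 1 was called lower, where 1.02% were. The groups did not overlap, with all shPAX6 libraries higher, for 5 members (6.70% of all features) and with all of them lower for 5 (20.0% of all features). The median log2 fold change was -0.10 over the 24 members and -0.12 over all tested features, with 11 members above 0 and 13 below. At an unadjusted p under 0.05 there were 10 of the 24 members (18.3% of all features).

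**Figure D2:**
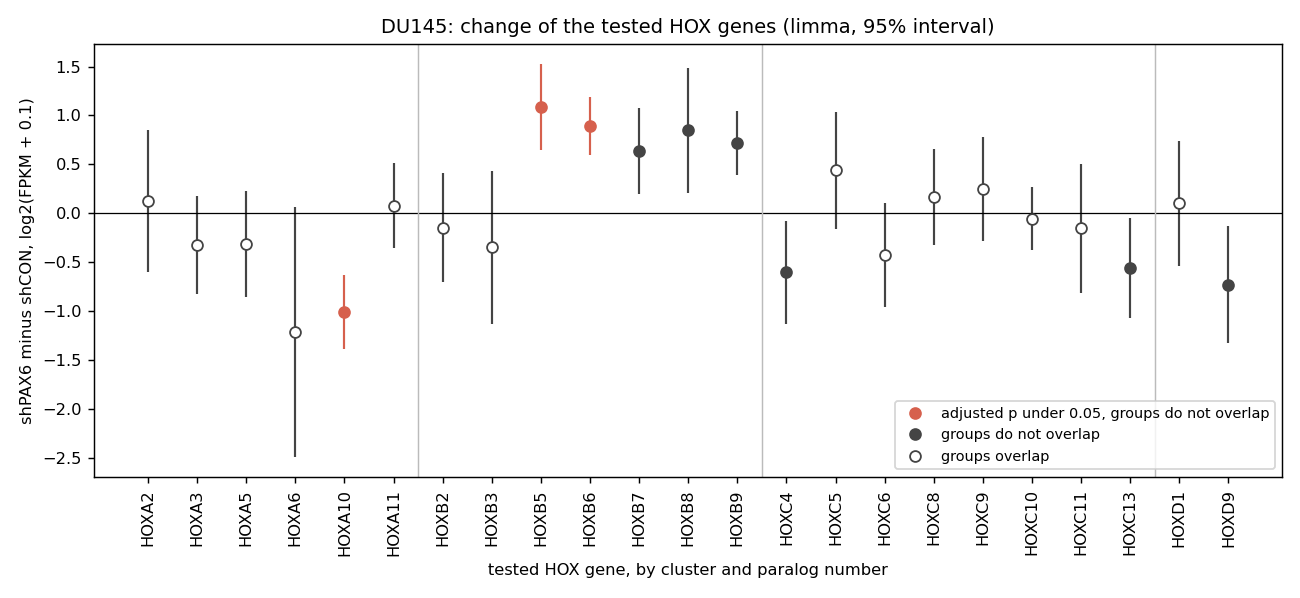
Difference between shPAX6 and shCON on the log2(FPKM + 0.1) scale for the tested HOX genes, with the 95% interval from limma. HOXB5 to HOXB9 form a run above 0 beside HOXB2 and HOXB3, and HOXA10 (-1.01) lies below 0.

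HOXB5 to HOXB9 lie next to each other on chromosome 17 (GRCh37 chr17:46668619-46703835, minus strand, a stretch of 35.2 kb). They were the 5 tested members in which the groups did not overlap with shPAX6 higher. The groups of HOXA4, not tested, did not overlap either, with shPAX6 higher, at no more than 0.177 FPKM. HOXB5 read 5.10, 4.84 and 4.39 FPKM in shCON and 12.5, 8.50 and 10.1 FPKM in shPAX6. The group means were 4.78 ± 0.36 and 10.4 ± 2.0 FPKM (SD, n = 3). The log2 fold change was 1.09 (SE 0.19, limma adjusted p = 0.0475). The lowest shPAX6 library stood well above the highest shCON library.

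HOXB6 read 13.1, 14.0 and 14.0 FPKM in shCON and 23.8, 25.7 and 27.0 FPKM in shPAX6. Its log2 fold change was 0.89 (SE 0.13, limma adjusted p = 0.0293), the lowest adjusted p of the members. The 3 shPAX6 libraries lay close together, unlike those of the other genes of the run.

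HOXB7 read 26.0, 25.4 and 24.5 FPKM in shCON and 49.2, 30.3 and 40.8 FPKM in shPAX6, with a log2 fold change of 0.64 (SE 0.19, limma adjusted p = 0.143). HOXB8 read 3.15, 3.66 and 2.75 FPKM in shCON and 7.91, 3.97 and 6.12 FPKM in shPAX6, with a log2 fold change of 0.85 (SE 0.27, limma adjusted p = 0.176). HOXB9 read 15.9, 16.9 and 16.3 FPKM in shCON and 30.3, 23.6 and 27.5 FPKM in shPAX6, with a log2 fold change of 0.72 (SE 0.14, limma adjusted p = 0.0614). These 3 genes did not pass the test. In HOXB5, HOXB7, HOXB8 and HOXB9, shPAX6 replicate 1 was the highest and shPAX6 replicate 2 the lowest of the 3 shPAX6 libraries. Replicate 1 also had the highest summed FPKM of all libraries, 570790, and replicate 2 the lowest, 448901. PAX6 itself was lowest in shPAX6 replicate 1, at 0.0153 FPKM, and of the shPAX6 libraries highest in replicate 2, at 0.274 FPKM. Whether either order bears on that of the HOXB genes was not tested. Rescaling to TPM, which makes the sums equal, left the log2 fold changes at 1.01 for HOXB5, 0.81 for HOXB6 and -1.10 for HOXA10. None of the 3 then passed (limma adjusted p of 0.0595, 0.0825 and 0.0712), where 8 features of the whole table were called higher and 76 lower.

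**Figure D3:**
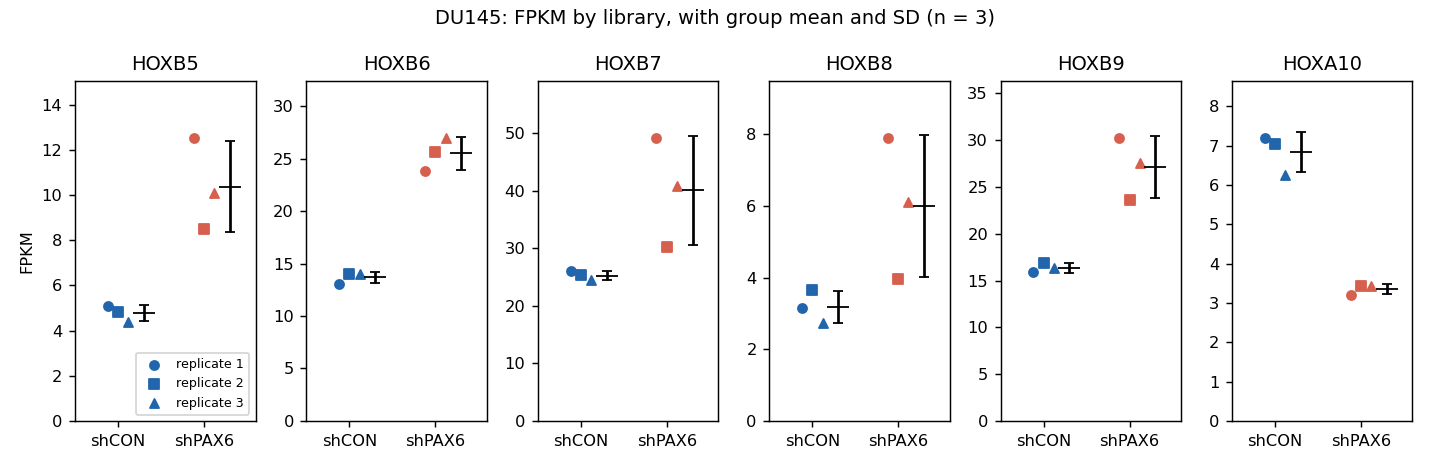
FPKM of HOXB5 to HOXB9 and HOXA10 in each DU145 library, by replicate number, with the group mean and SD (n = 3). In the 5 HOXB genes every shPAX6 library lies above every shCON library, and in HOXA10 every shPAX6 library, at 3.20 to 3.42, lies below every shCON library, at 6.25 to 7.20.

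Summed over HOXB5 to HOXB9, a run picked after its values were seen, the level was 63.3 ± 1.4 FPKM in shCON and 109 ± 16 FPKM in shPAX6 (SD, n = 3). The run held 46.9% to 50.2% of the summed HOX FPKM in the shCON libraries and 61.6% to 69.3% in the shPAX6 libraries. The share is a ratio within a library and does not depend on the library's total. Its rise follows in part from how the run was picked and was not tested. The other HOXB genes lay outside this pattern. HOXB2 was 2.38, 2.55 and 2.90 FPKM in shCON and 3.11, 2.00 and 2.06 FPKM in shPAX6. HOXB3 was 4.53, 3.69 and 4.04 FPKM in shCON and 1.85, 4.77 and 3.62 FPKM in shPAX6. In both genes the groups overlapped. HOXB4, which lies 12.9 kb from HOXB5 within the span of HOXB3, stayed below the filter at 0.129 to 0.326 FPKM. HOXB13, 98.3 kb past HOXB9, stayed at 0.

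**Figure D4:**
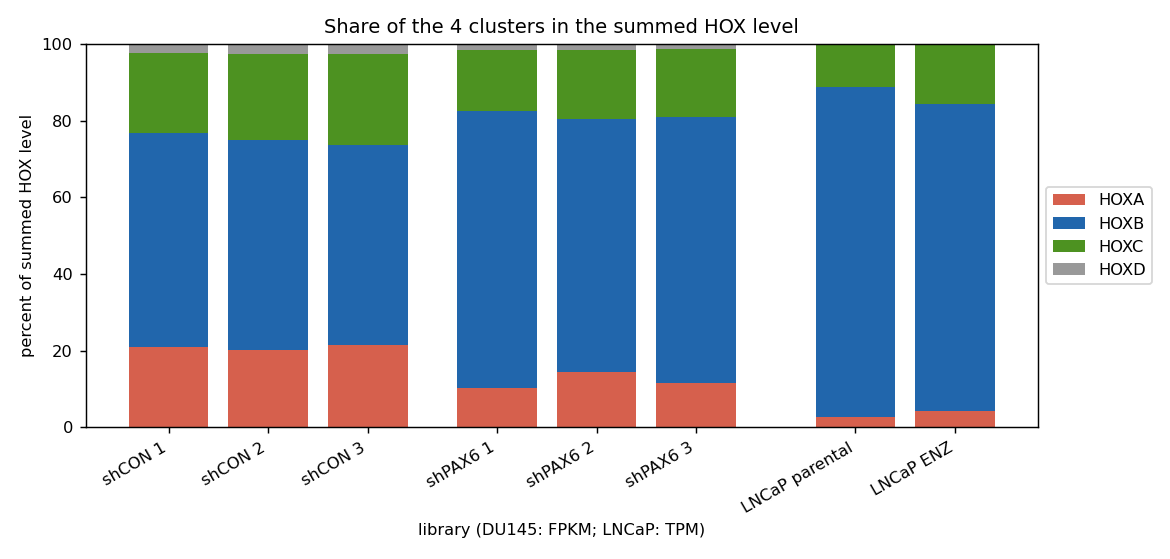
Share of each cluster in the summed level of the 39 HOX genes, in percent, for each library (FPKM in DU145, TPM in LNCaP). HOXB takes 52.3% to 55.8% in the shCON libraries, 66.2% to 72.3% in the shPAX6 libraries and 86.0% and 80.1% in the parental and ENZ libraries, in LNCaP through HOXB13.

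HOXA10, a posterior gene known from the development of the reproductive tract and from blood stem cells, was the member called lower. It lies at GRCh37 chr7:27210210-27219880 on the minus strand. It read 7.20, 7.04 and 6.25 FPKM in shCON and 3.20, 3.42 and 3.42 FPKM in shPAX6, a log2 fold change of -1.01 (SE 0.16, limma adjusted p = 0.0402). The 3 shPAX6 libraries were nearly alike, and the ratio of the group means was 0.490. The sequences from 250 bases before to 50 after the starts that RefSeq gives for HOXA10 on GRCh38.p14 are shown because HOXA10 was the gene called lower. Capitals mark a match to TATAAA on either strand.
HOXA10, chr7:27174271-27174570, minus strand: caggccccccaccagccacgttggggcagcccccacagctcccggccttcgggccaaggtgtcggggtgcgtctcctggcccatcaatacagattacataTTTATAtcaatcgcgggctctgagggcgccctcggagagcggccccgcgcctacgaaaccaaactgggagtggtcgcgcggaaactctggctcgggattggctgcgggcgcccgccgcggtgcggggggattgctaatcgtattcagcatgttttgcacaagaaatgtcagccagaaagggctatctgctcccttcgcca
HOXA10, chr7:27179812-27180111, minus strand: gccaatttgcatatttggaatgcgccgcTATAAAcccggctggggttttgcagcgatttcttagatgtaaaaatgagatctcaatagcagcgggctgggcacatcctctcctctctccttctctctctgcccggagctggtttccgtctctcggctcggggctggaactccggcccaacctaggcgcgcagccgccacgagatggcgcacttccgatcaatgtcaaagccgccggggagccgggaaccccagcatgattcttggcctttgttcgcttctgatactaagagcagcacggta
The match begins 150 bases before the start in the first window and 222 bases before it in the other. A match to TATAAA was in 5 of the 26 different windows of the 20 HOX genes with an entry, and in 11.6% of all 34796 windows. The spaced palindrome TTCNNNGAA bound by STAT factors was in 0 of the 26 windows (7.67% of all) and the PBX-HOX letters TGATNNAT were in 3 (7.42% of all), those of HOXA2, HOXB1 and HOXD11. A match is a description of letters and not of binding.

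The genes beside HOXA10 overlapped between the groups. HOXA11, 0.895 kb away, was 4.13, 4.12 and 3.21 FPKM in shCON and 3.84, 3.97 and 4.25 FPKM in shPAX6. HOXA9, 5.06 kb to the other side, was below the filter at 0.227 to 0.577 FPKM in both groups. HOXA6 had the most negative value of the members, -1.21, with an SE of 0.55, since shPAX6 replicate 2 (1.23 FPKM) lay among the shCON libraries (0.947 to 1.96 FPKM). HOXA7, not tested, was 0.490, 0.499 and 0.817 FPKM in shCON and 0, 0.246 and 0.352 FPKM in shPAX6. HOXA2, HOXA3 and HOXA5 overlapped between the groups, with log2 fold changes of 0.13, -0.33 and -0.31. Summed over HOXA, the level was 26.9 ± 1.2 FPKM in shCON and 19.7 ± 1.7 FPKM in shPAX6 (SD, n = 3).

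In HOXC and HOXD 0 of 10 tested members passed by limma, and 3 had an unadjusted p under 0.05, where 18.3% of all features did. These were the 3 whose groups did not overlap, all with shPAX6 lower. HOXC4 was 1.41, 1.46 and 1.27 FPKM in shCON and 0.935, 0.836 and 0.848 FPKM in shPAX6 (log2 fold change -0.60, SE 0.22, limma adjusted p = 0.221). HOXC13, a gene of hair and nail growth, was 2.13, 2.63 and 2.02 FPKM in shCON and 1.67, 1.39 and 1.43 FPKM in shPAX6 (-0.56, SE 0.22, limma adjusted p = 0.237). HOXD9 was 2.18, 2.30 and 2.32 FPKM in shCON and 1.84, 1.13 and 1.12 FPKM in shPAX6 (-0.73, SE 0.25, limma adjusted p = 0.20). In all 3 every shCON library lay above every shPAX6 library, which also held for 20.0% of all features. HOXC10, the highest gene of the cluster, was 9.07 to 10.3 FPKM in shCON and 9.17 to 9.62 FPKM in shPAX6. Its log2 fold change of -0.05 had a 95% interval of -0.38 to 0.27. HOXC summed to 28.9 ± 2.4 and 28.4 ± 1.5 FPKM in the groups (SD, n = 3).

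HOXC4, HOXC5 and HOXC6 have the same start in the LNCaP table (GRCh37 chr12, base 54410636), so reads of their shared part may be split among them. RefSeq gives HOXC4 and HOXC5 1 window in common, shown for that reason, with no match to the letters above:
HOXC4 and HOXC5, GRCh38.p14 chr12:54016638-54016937, plus strand: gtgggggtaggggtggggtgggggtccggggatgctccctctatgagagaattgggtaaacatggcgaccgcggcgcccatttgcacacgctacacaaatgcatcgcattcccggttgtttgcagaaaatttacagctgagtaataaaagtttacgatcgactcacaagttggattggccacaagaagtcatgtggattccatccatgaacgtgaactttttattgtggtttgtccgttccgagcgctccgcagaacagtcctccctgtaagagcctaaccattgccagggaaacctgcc
HOXC5 was 2.55, 2.17 and 3.73 FPKM in shCON and 4.38, 3.11 and 3.91 FPKM in shPAX6, a log2 fold change of 0.44 (SE 0.26, limma adjusted p = 0.424), beside the -0.60 of HOXC4. HOXC6 was 3.00, 4.31 and 4.70 FPKM in shCON and 2.58, 3.13 and 3.02 FPKM in shPAX6 (-0.43, SE 0.23, limma adjusted p = 0.376). How the authors divided shared reads is not given in the sources used here, so the values of these 3 genes are uncertain.

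Members with the same paralog number had different values. Beside HOXB5 (1.09) and HOXB6 (0.89) stood HOXA5 at -0.31 and HOXA6 at -1.21, with HOXC5 at 0.44 and HOXC6 at -0.43. Beside HOXB9 (0.72) stood HOXC9 at 0.25 and HOXD9 at -0.73, and beside HOXB8 (0.85) stood HOXC8 at 0.17. HOXC10 at -0.05 was the paralog of HOXA10 (-1.01). HOXA11 was at 0.08 and HOXC11 at -0.15, HOXB2 at -0.14, HOXB3 at -0.35 and HOXD1 at 0.10. The differences between paralogs were not tested.

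The calls depended on which libraries were included, while the fold changes moved less. With 1 library left out the log2 fold change ran from 0.94 to 1.22 for HOXB5, from 0.85 to 0.94 for HOXB6 and from -1.07 to -0.97 for HOXA10. The directions of the run and of HOXA10 did not change under any of the 17 alternatives run. Without any 1 of the shCON libraries, or without shPAX6 replicate 3, no HOX gene passed (limma adjusted p of 0.186 to 0.231 for HOXB6, 0.217 to 0.321 for HOXB5 and 0.195 to 0.288 for HOXA10), where 0 to 10 features of the whole table did, and 5 to 7 HOX genes had an unadjusted p under 0.05 (9.19% to 12.3% of all features). Calls rose across the whole table with shPAX6 replicate 1 or 2 left out. Without shPAX6 replicate 1 there were 5 HOX calls (HOXA10, HOXB5, HOXB6, HOXB9 and HOXD9), with 200 features higher and 724 lower. Without shPAX6 replicate 2 there were 7 (HOXA6, HOXA10 and HOXB5 to HOXB9), with 186 higher and 713 lower. Setting the library medians equal moved the median of all features from -0.12 to 0.06 and quantile normalization moved it to 0.01. They left 1 HOX gene (HOXB6) and 2 (HOXB6 and HOXB9) called, all higher, and the split over all features went from 24 higher and 139 lower to 28 and 72, and to 74 and 162. The change of a feature was also related to the GC content of its transcript (Spearman's rho -0.36 over 12009 features, a description). HOXB5 to HOXB9 transcripts have 50.8% to 57.0% GC, and that of HOXA10 54.3%. With a GC correction 42 features were called higher, HOXB5, HOXB6 and HOXB9 among them, and 105 lower. HOXA10 then had a log2 fold change of -0.91 and an adjusted p of 0.0613 by limma.

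None of the tested genes in 5 lists of neighbours and regulators of the clusters was called in DU145 by limma. The counts at an unadjusted p under 0.05 stand beside 18.3% of all features. Groups that did not overlap stand beside 20.0% of all features with shPAX6 lower and 6.70% with shPAX6 higher. Of the genes flanking the clusters 7 were tested, and 0 passed by limma (1 at an unadjusted p under 0.05), with MTX2 beside HOXD at 0.28 and CALCOCO1 beside HOXC at -0.47. Of 9 cofactor genes 7 were tested, 0 passed and 0 had an unadjusted p under 0.05. Their highest value was 0.30 (MEIS3), and the groups did not overlap for 2, PBX2 and PBX4, with shPAX6 lower. All 25 Polycomb genes were tested and 0 passed (2 at an unadjusted p under 0.05), from -0.66 for CBX7 to 0.30 for EED. All 13 genes of HOX-activating chromatin complexes were tested and 0 passed (2 at an unadjusted p under 0.05), from -0.89 for KDM6B, an H3K27 demethylase, to 0.30 for DPY30. Of 19 retinoid and CDX genes 9 were tested and 0 passed, while 6 had an unadjusted p under 0.05. CRABP2, which carries retinoic acid to its receptor, read 38.8, 41.8 and 36.7 FPKM in shCON and 84.7, 57.6 and 77.2 FPKM in shPAX6 (log2 fold change 0.89, SE 0.17, limma adjusted p = 0.0566). The groups did not overlap for CRABP2, nor, with shPAX6 lower, for 5 more, among them RARG (-0.73, limma adjusted p = 0.0696) and ALDH1A3 (-0.98, limma adjusted p = 0.233), an enzyme that makes retinoic acid. The median of the retinoid list was -0.69, beside -0.12 for all features. CDX1, CDX2 and CDX4 were listed at or near 0.

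The comparison of LNCaP ENZ with parental cells asked what long exposure to enzalutamide changed. It had 1 library per arm, so it has no replicate check and no p-value, and the intervals cover counting error only. HOXA10, HOXC12 and HOXC13 had higher CPM in ENZ cells, HOXB13 differed by 0.01 on the log2 scale, and none of the 11 members at 1 CPM passed 2-fold. Of the 39 members, 11 had a mean of at least 1 CPM and 10 were below it with more than 3 counts in a library. Of the 11, 0 were past 2-fold higher (1.84% of the 14767 genes at that level) and 0 past 2-fold lower (9.57%). The counting interval lay above 0 for 5 (21.6% of all) and below 0 for 0 (42.3% of all). The median log2 ratio was 0.22 over the 11 members and -0.15 over all genes at that level.

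**Figure D5:**
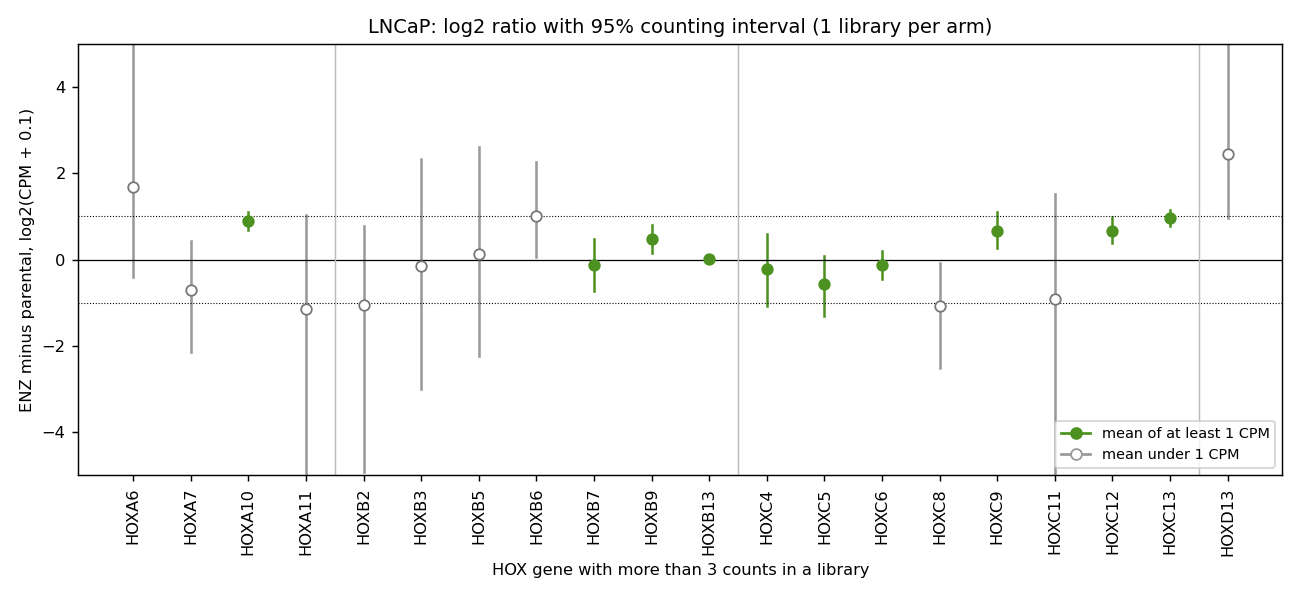
Log2 ratio of CPM + 0.1 between LNCaP ENZ and parental cells for the HOX genes with more than 3 counts in a library, with the 95% exact counting interval, cut at the axis limits, and dotted lines at 2-fold. HOXA10 (0.89), HOXC13 (0.95), HOXC12, HOXC9 and HOXB9 have intervals above 0 at a mean of at least 1 CPM, and HOXB13 lies at 0.01 with a narrow interval.

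HOXC13 had 357 counts in parental and 608 in ENZ cells, or 17.4 and 33.9 CPM, a log2 ratio of 0.95 (95% interval 0.77 to 1.15). HOXA10 had 304 and 497 counts, or 14.9 and 27.7 CPM, a ratio of 0.89 (0.69 to 1.11). HOXC12 had 156 and 219 counts, a ratio of 0.67 (0.38 to 0.98). HOXA10, HOXC12 and HOXC13 lie towards the posterior ends of their clusters, as does HOXB13, whose ratio was 0.01. HOXC9 had 85 and 119 counts (0.66, 0.26 to 1.09) and HOXB9 155 and 189 counts (0.47, 0.16 to 0.79).

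HOXB13 had a ratio of 0.01 (-0.03 to 0.05) under scaling by library totals. With TMM factors it was 0.15, and with the deposited TPM -0.08, so its direction depended on the scaling. HOXC4 (31 and 23 counts), HOXC5 (52 and 30), HOXC6 (189 and 152) and HOXB7 (56 and 45) were below 0 with intervals that included 0. The directions of HOXC6 and HOXB7 also depended on the scaling: both were 0.02 with TMM factors, and both were 0.03 with the median ratio set to 0.

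Of the members under 1 CPM, HOXB6 had 12 and 23 counts, with a ratio of 1.01 (0.06 to 2.27), at a mean of 0.934 CPM. HOXC8 had 24 and 9 counts (-1.08, -2.52 to -0.07) at 0.837 CPM, and HOXA7 had 18 and 9 (-0.70, -2.15 to 0.42). HOXD13, a gene of digit and genital development, had 0 counts in parental and 8 in ENZ cells, with a counting interval from 0.96 upwards. HOXA6 had 0 and 4 counts, with an interval from -0.41 upwards, which includes 0. HOXA11, HOXB2, HOXB3, HOXB5 and HOXC11 had at most 7 counts. These ratios have wide intervals and give no order. The other 18 members, 8 of them in HOXD, had at most 3 counts in each library.

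Antisense RNAs of the clusters were read in LNCaP and are not analysed here in DU145. Of the 18 RNAs and neighbours listed there 5 passed 1 CPM, and 2 of these were past 2-fold higher, beside 1.84% of all genes. HOXA10-AS had 73 and 130 counts, a ratio of 1.00 (0.60 to 1.46), and HOXC13-AS had 24 and 49, a ratio of 1.15 (0.49 to 1.99). HAGLR of HOXD had 46 and 29 counts (-0.45, -1.20 to 0.23). HOXA10-AS shares 1.32 kb with HOXA10 on the opposite strand, and HOXC13-AS shares 0.852 kb with HOXC13. The sources used here do not say that strand was used in counting, so reads of each pair cannot be told apart. HOTAIR had 0 counts in both arms.

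Of the regulators of the clusters 5 were past 2-fold in LNCaP, all lower in ENZ cells: MEIS1 (169 and 67 counts, -1.12), the Polycomb genes JARID2 (999 and 357, -1.29) and BMI1 (549 and 230, -1.06), PSIP1 (880 and 345, -1.16), which tethers MLL complexes to chromatin, and ALDH1A3 (437 and 67, -2.48). The counts past 2-fold lower were 1 of 7 cofactors, 2 of 25 Polycomb genes, 1 of 13 activating genes and 1 of 10 retinoid genes at 1 CPM, beside 9.57% of all genes. The highest ratios in these lists were 0.38 for PBX4, 0.28 for CBX6, 0.56 for WDR5 and 0.44 for RXRA. Of the 7 flanking genes at 1 CPM, 1 was past 2-fold lower, beside 9.57% of all genes: TTLL6 (217 and 87 counts, -1.11), on the far side of HOXB13. HIBADH beside HOXA had the highest ratio (821 and 1263 counts, 0.81).

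Set side by side, HOXA10 was -1.01 in the DU145 knockdown and 0.89 in LNCaP ENZ cells, and HOXC13 was -0.56 and 0.95. HOXB9 was above 0 in both, at 0.72 and 0.47, and HOXB7 was 0.64 and -0.12, the latter above 0 with TMM factors. The comparisons come from different cell lines, treatments and tables, and the differences between them were not tested.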

How the data were processed

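RNA-seq tables of 8 libraries were used: 1 parental and 1 ENZ library of LNCaP, and 3 shCON and 3 shPAX6 libraries of DU145, grouped by the sample labels. According to the study's methods, reads were aligned to GRCh37 with HISAT2 and quantified with StringTie, with versions not given in the sources used here. The LNCaP values deposited by the authors are raw counts of each gene and TPM, which are counts over gene length rescaled to the same sum in each library. For DU145 the deposited values carry no unit name and were treated as FPKM computed by the authors. No count test could therefore be run on them. The 6 ATAC-seq samples were not analysed here. Columns of samples that could not be placed numbered 0.

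DU145 was tested with limma 3.58.1 (R 4.3.3; eBayes with trend) after adding 0.1 FPKM and taking log2, in features that averaged 0.5 FPKM or more, two-sided, with Benjamini-Hochberg adjustment over all 13574 features. A fold change on this scale understates that of low genes. LNCaP counts were scaled by library totals, and ratios were taken of CPM + 0.1, with exact Clopper-Pearson 95% intervals of the split of the counts. TMM factors came from edgeR 4.0.16. Steps across many genes were tested on simulated data. The text names the members, PAX6, markers and, of each list of related genes, those past the threshold and the extremes in each direction. The values of 1 member and of some related genes are not reported here, and they stay in the counts and sums but not in the plots of single genes. The members, the lists and the tests were chosen with earlier results of these data known. Promoter windows come from RefSeq.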

Additional observations from a re-analysis of the deposited data

How the results depend on the processing

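The number of HOX genes called in DU145 was 3. It was 2 with a pseudocount of 0.01, 2 with eBayes without trend and 2 after quantile normalization. HOXB5 did not pass in any of these (limma adjusted p of 0.0502, 0.0518 and 0.0573). The number was 1 with no filter on low values and 1 with library medians set equal, and 0 after rescaling to TPM and at a threshold of 0.01. Leaving out 1 library gave 0 to 7. At an adjusted p under 0.05 by limma, HOXB5 passed in 5, HOXA10 in 6 and HOXB6 in 10 of the 17 alternatives run. The sources used here do not say whether the replicate numbers pair the libraries. Same-numbered deviations from the group means correlated at -0.17, -0.37 and 0.05, which cannot decide it with 3 libraries per group. With a replicate block 0 HOX genes and 0 of all features were called by limma, with 6 HOX genes and 1568 features at an unadjusted p under 0.05, and with the replicate block and GC correction 0 HOX genes. The median of the tested members, -0.10, was -0.061 with a pseudocount of 1, -0.036 with no filter, 0.11 after quantile normalization, 0.077 with medians set equal, -0.18 rescaled to TPM and 0.0047 with GC correction, with or without the replicate block, and -0.14 to -0.0091 with 1 library left out. PAX6 kept its direction and passed the test with a pseudocount of 1 (-0.97), eBayes without trend (-2.69) and GC correction (-2.85), and without shPAX6 replicate 1 or 2 (adjusted p of 0.0220 and 0.0105 by limma), and its value ran from -3.16 to -2.31 with 1 library left out. It fell below the filter at a mean of 1 FPKM and without shCON replicate 3.

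Uncalled HOX genes near 0 changed sign: HOXA11 to -0.0031 (TPM), HOXB2 to 0.066 (quantile) and 0.031 (medians equal), HOXC10 to 0.079, 0.12 and 0.029 (quantile, medians equal, GC correction with or without the replicate block), and HOXC11 to 0.13 and 0.024 (quantile, medians equal). With 1 library left out, HOXA11 ran from -0.037 to 0.14, HOXB3 from -0.63 to 0.029, HOXC11 from -0.29 to 0.00087 and HOXD1 from -0.065 to 0.21, so each changed sign in 1 case. The cause was not tested. In LNCaP the number past 2-fold, 0, was 4 at a mean of at least 0.2 CPM (HOXB6 and HOXD13 higher, HOXB2 and HOXC8 lower), 2 with TMM factors and 2 with the median ratio set to 0 (HOXA10 and HOXC13 each time), and 4 at 1.5-fold. The median log2 ratio stayed above 0 in all 7 alternatives run, at 0.13 to 0.66. The DU145 depth is unknown, and 1 library per LNCaP arm gives counting error only.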
